A study of Mus musculus with 8 samples.

Results

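The CXCR4 and VLA-4 marrow retention axis was taken as 8 genes whose products hold blood stem cells in the marrow or let them leave it, namely Cxcr4, Ackr3, Cxcl12, Itga4, Itgb1, Vcam1, Dpp4 and S1pr1. The genes were chosen by their known roles, with earlier results of these data known. Each had 1 probe set of its own on the array, and all 8 were among the 19938 genes that could be tested. Their values come from sorted bone marrow stem cells of mice given granulocyte colony-stimulating factor (G-CSF) at 125 mcg/kg under the skin 2 times a day for 36 h, and of mice given phosphate-buffered saline (PBS, called saline in the design text) for 36 h. There were 4 G-CSF arrays and 4 PBS arrays, each from the pooled cells of 5 to 10 mice, and strain, age and genotype are not given in the labels. The sort, known as KSL SLAM, kept c-Kit+ Sca-1+ cells that lacked lineage markers, carried CD150 and were negative for CD48 and CD41. Cells that had already left the marrow were not sampled, and surface protein was not measured.

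CXCR4 is the receptor by which stem cells sense CXCL12, a chemokine made by marrow stromal and endothelial cells, and CXCL12 keeps them in place. VLA-4, the pair of integrin chains alpha 4 and beta 1, holds them to VCAM1 on the niche. CD26, the protease encoded by Dpp4, clips CXCL12, and sphingosine 1-phosphate draws cells that carry its receptor S1PR1 towards the blood. G-CSF is used to move stem cells into blood, and blockers of CXCR4 or VLA-4 do the same.

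The labelled cell type was checked against marker genes. Of the proteins the sort required, Kit had a log2 intensity of 10.35 ± 0.12 in G-CSF arrays and 10.70 ± 0.20 in PBS arrays, and Slamf1, the gene of CD150, 6.78 ± 0.52 in G-CSF arrays and 6.62 ± 0.55 in PBS arrays (SD, n = 4 each). Hlf, a stem cell transcription factor, had 10.40 ± 0.22 in G-CSF arrays and 10.51 ± 0.44 in PBS arrays (SD, n = 4 each). Transcripts of proteins the sort excluded were measured as well, with Cd48 at 7.84 ± 0.79 in G-CSF arrays and 7.19 ± 0.44 in PBS arrays and Itga2b, the gene of CD41, at 7.50 ± 0.25 in G-CSF arrays and 7.39 ± 0.33 in PBS arrays (SD, n = 4 each). Sca-1 itself (Ly6a) was not analysed here. For scale, 28 genes of liver, muscle, eye and other organs had means between 2.24 and 7.04, a range that holds Slamf1 and not Cd48 or Itga2b. Probe sets differ in brightness, so below a gene's level is set only against the organ gene range or against all genes. The sort required CD150, and Slamf1 lies in that range, so a level inside it does not show that a transcript is absent. PBS replicate 3 stood apart. Its interquartile range over genes was 1.68 on the log2 scale, against 2.42 or more in the other arrays, and the mean of the 28 organ genes was 5.20 there, against 4.46 to 4.69 in the other arrays. Its values were compressed, with the organ genes brighter than elsewhere. Results below use all 8 arrays unless the text says that this array was left out. Of 16 measured stem cell markers, 8 had positive and 8 negative log2 fold changes (G-CSF minus PBS), and 0 had a limma adjusted p under 0.05. Their median was 0.04, and -0.05 without PBS replicate 3, with Kit lowest at -0.35. The 16 include Cd48 at 0.64 and Itga2b at 0.10, genes of proteins the sort excluded. The split and the median therefore mix required and excluded markers and do not check stem cell identity by themselves. Cd34 had 0.87, Flt3 0.80 and Tek 0.66 (limma adjusted p = 0.517, 0.583 and 0.577). Without PBS replicate 3 these were 0.60, 0.86 and 0.26. The label checks on treatment were Socs3, the feedback inhibitor of cytokine receptors, and Csf3r, the G-CSF receptor. Socs3 rose in G-CSF arrays by a log2 fold change of 1.36 ± 0.18 SE (limma adjusted p = 0.0198), and did not pass in 6 of 21 alternative settings. Csf3r had 1.29 ± 0.21 SE and did not pass (limma adjusted p = 0.0585).

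None of the 8 genes passed the test. At an adjusted p under 0.05 (limma, Benjamini-Hochberg over 19938 genes), 0 of 8 were called, where 0.0953% of all genes were called, 19 higher and 0 lower. At an unadjusted p under 0.05, 1 of the 8 passed, S1pr1, which was higher, where 9.01% of all genes did, 6.07% higher and 2.94% lower. By the exact 2-sided permutation test on each gene, whose lowest possible p is 0.0286, 0 of 8 passed, the lowest being 0.0571 for Itgb1. The 4 G-CSF values overlapped the 4 PBS values for every one of the 8, while 6.15% of all genes had no overlap. The fold changes were positive for 4 genes and negative for 4. Their median was 0.04 on the log2 scale, beside -0.07 for all genes and 0.13 for the 9969 brighter genes, which include 7 of the 8.

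**Figure D1:**
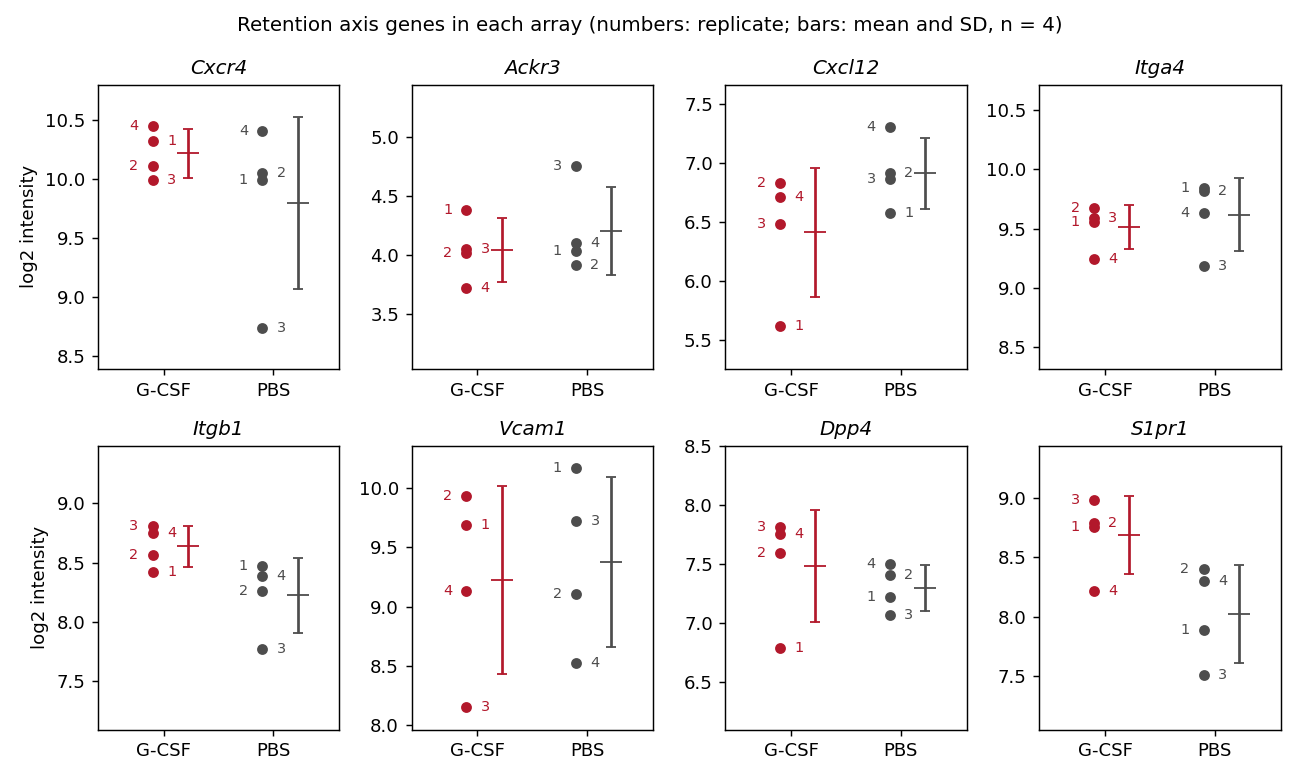
Log2 intensity of the 8 retention axis genes in each array, G-CSF left and PBS right, with the replicate number beside each point and the mean and SD of the 4 arrays at the side. Every panel spans the same range of log2 units; the groups overlap in all 8 panels, and PBS replicate 3 is the lowest point for Cxcr4, Itga4, Itgb1, Dpp4 and S1pr1 in the PBS group.

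Cxcr4 was bright in every array. Its log2 intensity was 10.32, 10.11, 9.99 and 10.45 in G-CSF replicates 1 to 4, and 9.99, 10.05, 8.74 and 10.41 in PBS replicates 1 to 4. The G-CSF values and 3 of the PBS values lay within the same band, and PBS replicate 3 lay below it. The gene ranked at percentile 98.4 or above among all genes in each of the other 7 arrays, and at 96.0 in PBS replicate 3. With all arrays the log2 fold change was 0.42 ± 0.31 SE, a fold of 1.34 with a 95% confidence interval of 0.828 to 2.16 (limma adjusted p = 0.627). Without PBS replicate 3 it was 0.07 ± 0.17 SE, a fold of 1.05 with an interval of 0.804 to 1.36 (limma adjusted p = 0.944). In those 7 arrays the interval holds no fall in Cxcr4 transcript to less than 0.804 of the PBS level.

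The promoter of Cxcr4 is shown because the transcription factor NRF1 is known to activate this gene and its own transcript was measured in the same arrays. The 250 bases before the annotated start, on the minus strand at chr1:128592300-128592549 (RefSeq, GRCm38.p6), read 5′ to 3′ as follows, with capitals on the matches to the NRF1 motif, GCGCA followed directly by TGCGC and so its own reverse complement, and to the TATA box letters TATAAAA, searched on both strands.
Cxcr4: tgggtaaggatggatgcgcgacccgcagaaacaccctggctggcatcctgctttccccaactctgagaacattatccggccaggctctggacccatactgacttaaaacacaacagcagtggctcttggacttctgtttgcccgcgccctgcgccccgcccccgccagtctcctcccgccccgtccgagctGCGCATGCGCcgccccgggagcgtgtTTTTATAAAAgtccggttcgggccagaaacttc
The NRF1 motif begins 59 bases before the start. It occurs in 0.782% of the 32851 windows of this length in the table, and among the 6 retention axis genes with a window it was found in Cxcr4 alone. The TATAAAA letters matched on both strands in overlapping positions, beginning 33 and 30 bases before the start. They occur in 4.98% of windows, and in those of Ackr3 and Dpp4 as well. Vcam1 and S1pr1 had no window. A match is a description of letters and does not show binding.

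The transcript of Nrf1 averaged 7.07 ± 0.46 in G-CSF arrays and 6.93 ± 0.24 in PBS arrays on the log2 scale (SD, n = 4 each), a log2 fold change of 0.14 ± 0.24 SE (limma adjusted p = 0.808), and 0.04 without PBS replicate 3. Gfi1, a repressor known to act on Cxcr4 in myeloid cells, had 0.15 ± 0.15 SE (limma adjusted p = 0.698). Of the 7 measured transcription factors known to act on Cxcr4, 0 passed, 5 had positive fold changes, and their median log2 fold change was 0.15, and 0.04 without PBS replicate 3. The lowest p-values belonged to Foxc1, a factor of CXCL12-rich stromal cells whose level lay within the range of the organ genes, with -0.37 ± 0.17 SE, and Egr1, an immediate-early factor that restrains stem cell exit, with -0.50 ± 0.24 SE (limma adjusted p = 0.551 and 0.555). Next came Creb1, a factor activated by cyclic AMP signalling, with 0.43 ± 0.25 SE, and Yy1, a repressor of Cxcr4, with 0.30 ± 0.19 SE (limma adjusted p = 0.583 and 0.587), and these were 0.18 and 0.17 without PBS replicate 3.

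Ackr3 encodes the atypical receptor that takes up CXCL12 and so limits its supply. Its log2 intensity was 4.38, 4.02, 4.05 and 3.72 in G-CSF arrays and 4.03, 3.92, 4.75 and 4.10 in PBS arrays. All 8 values lay within the range of the genes of other organs, so this probe set gave no sign of transcript above that range in either group. The highest value was that of PBS replicate 3, where dim genes were brighter. The log2 fold change was -0.16 ± 0.22 SE (limma adjusted p = 0.763) with all arrays and 0.02 ± 0.17 SE without PBS replicate 3 (limma adjusted p = 0.981).

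Cxcl12, the ligand, is a product of stroma rather than of stem cells. Its log2 intensity was 5.62, 6.83, 6.48 and 6.71 in G-CSF arrays, and 6.57, 6.91, 6.86 and 7.30 in PBS arrays. G-CSF replicate 1 was the lowest array and PBS replicate 4 the highest, and the other 6 overlapped. The log2 fold change was -0.50 ± 0.27 SE, a fold of 0.708 with a 95% confidence interval of 0.468 to 1.07 (limma adjusted p = 0.578), and it was -0.23 without G-CSF replicate 1. The value of 6.66 over all arrays lay inside the upper part of the range of the organ genes. The 17 measured stroma and osteoblast markers had means between 3.52 and 6.45, with the leptin receptor gene Lepr, which marks the main CXCL12-producing stromal cells, at 3.78 ± 0.18 in G-CSF arrays and 3.88 ± 0.43 in PBS arrays (SD, n = 4 each). The summed linear intensity of these markers was 538 to 697 in G-CSF arrays and 562 to 863 in PBS arrays. Of the 17, 0 passed the test, and the part of stromal RNA in the Cxcl12 values was not tested.

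The alpha chain of VLA-4, Itga4, was bright and nearly level. It had log2 intensities of 9.56, 9.67, 9.59 and 9.25 in G-CSF arrays and 9.85, 9.82, 9.18 and 9.63 in PBS arrays. The lowest values were those of PBS replicate 3 and G-CSF replicate 4, and the groups overlapped. The log2 fold change was -0.10 ± 0.20 SE, a fold of 0.932 with a 95% confidence interval of 0.691 to 1.26 (limma adjusted p = 0.83). Without PBS replicate 3 it was -0.25 ± 0.15 SE (limma adjusted p = 0.684).

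The beta chain Itgb1, which many alpha chains share, leaned the other way. It had 8.42, 8.56, 8.81 and 8.75 in G-CSF arrays and 8.47, 8.26, 7.77 and 8.39 in PBS arrays. G-CSF replicate 1 fell below PBS replicate 1, and the remaining 3 G-CSF values lay above all PBS values. The log2 fold change was 0.41 ± 0.20 SE, a fold of 1.33 with a 95% confidence interval of 0.988 to 1.80 (limma adjusted p = 0.552), and 0.26 ± 0.15 SE without PBS replicate 3 (limma adjusted p = 0.661).

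Set against each other within an array, the subunits of VLA-4 separated the groups, which neither did alone. The log2 value of Itgb1 minus that of Itga4 was -1.13, -1.11, -0.78 and -0.50 in G-CSF arrays and -1.38, -1.55, -1.42 and -1.24 in PBS arrays. Every G-CSF array lay above every PBS array, and the means differed by 0.52, with an SD of 0.30 in G-CSF arrays and 0.13 in PBS arrays (n = 4 each). The gap was 0.51 without PBS replicate 3 and 0.52 after quantile normalization, where the groups again did not overlap. Over all other genes, 4.98% showed no overlap when Itga4 was subtracted and 14.2% when Itgb1 was. The pair was looked at after the values were seen, and it is 1 of 4 without overlap among the 28 pairs that 8 genes allow, so no p-value is given and the separation is a description of these 8 arrays. The other 3 pairs were Itga4 with S1pr1, Cxcl12 with Dpp4 and Cxcl12 with S1pr1.

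**Figure D2:**
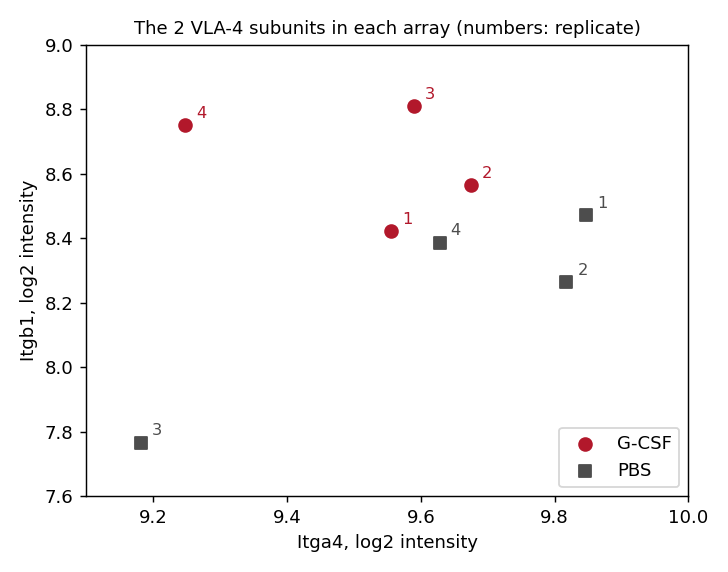
Log2 intensity of Itgb1 (vertical) against Itga4 (horizontal) in each of the 4 G-CSF arrays (circles) and 4 PBS arrays (squares), with replicate numbers. Each gene alone overlaps between the groups, while the difference Itgb1 minus Itga4 runs from -1.13 to -0.50 in G-CSF arrays and from -1.55 to -1.24 in PBS arrays.

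Vcam1, the niche ligand of VLA-4, is also carried by marrow macrophages and by blood stem cells themselves. It varied widely within both groups. Its log2 intensity was 9.69, 9.94, 8.15 and 9.13 in G-CSF arrays, and 10.17, 9.11, 9.72 and 8.53 in PBS arrays. Each group held both high and low arrays, with G-CSF replicate 3 the lowest and PBS replicate 1 the highest. The SD was 0.79 in G-CSF arrays and 0.72 in PBS arrays, and the log2 fold change was -0.15 ± 0.42 SE, with a 95% confidence interval of -1.08 to 0.77 (limma adjusted p = 0.879). The sign turned to 0.20 without G-CSF replicate 3 and to 0.11 without PBS replicate 1, and the value was -0.04 without PBS replicate 3.

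Several macrophage genes rose and fell with Vcam1 from array to array, at levels of their own. Among the 9969 brighter genes, predicted genes and accession-like names left out, the 3 with the highest Pearson correlation to Vcam1 over the 8 arrays were Adgre1, which encodes the macrophage marker F4/80, at 0.995, the mannose receptor gene Mrc1 at 0.962 and the chemokine receptor gene Ccr3 at 0.961. Without PBS replicate 3 the values over 7 arrays were 0.995, 0.990 and 0.959. Adgre1 had log2 intensities of 7.14, 7.22, 5.36 and 6.45 in G-CSF arrays and 7.57, 6.32, 7.08 and 5.90 in PBS arrays. Its high and low arrays were those of Vcam1 in each group, and its own log2 fold change was -0.17 ± 0.44 SE (limma adjusted p = 0.872), and -0.05 without PBS replicate 3. The complement gene C1qb, another macrophage product, correlated with Vcam1 at 0.757 over 8 arrays and at 0.974 without PBS replicate 3, where C1qb was low at 6.99 and Vcam1 high at 9.72. Over the 17 measured macrophage and monocyte markers the correlation with Vcam1 ran from 0.09 for Ccr2 to 0.995 for Adgre1, with C1qa and Cd68 at 0.48. Their mean correlated with Vcam1 at 0.76, and at 0.95 without PBS replicate 3. Other marker means came near the value over 8 arrays, with 0.74 for megakaryocyte and platelet markers, 0.70 for erythroid markers, 0.68 for T and NK cell markers and -0.76 for endothelial markers, and without PBS replicate 3 these were 0.78, 0.83, 0.68 and -0.87. These correlations describe 8 arrays that share a platform and a normalization.

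The summed linear intensity of the 17 macrophage and monocyte markers was 4534, 6301, 1921 and 3690 in G-CSF arrays and 7536, 2393, 1872 and 2389 in PBS arrays. The groups overlapped, 0 of the 17 passed the test, and 12 had positive fold changes. With the mean of these markers as a covariate, chosen after seeing the data, the log2 fold change of Vcam1 was -0.48 ± 0.29 SE (limma adjusted p = 0.796). With the mean of the neutrophil markers as a covariate it was -1.68 ± 0.46 SE (limma adjusted p = 0.723). That mean was 8.25 or more in G-CSF arrays and 8.14 or less in PBS arrays. Since the covariate itself separated the groups, this fit cannot cleanly split it from treatment. The part of macrophage RNA in the Vcam1 values was not tested. In RNA from pooled cells, fewer cells of a type and less RNA per cell cannot be told apart.

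**Figure D3:**
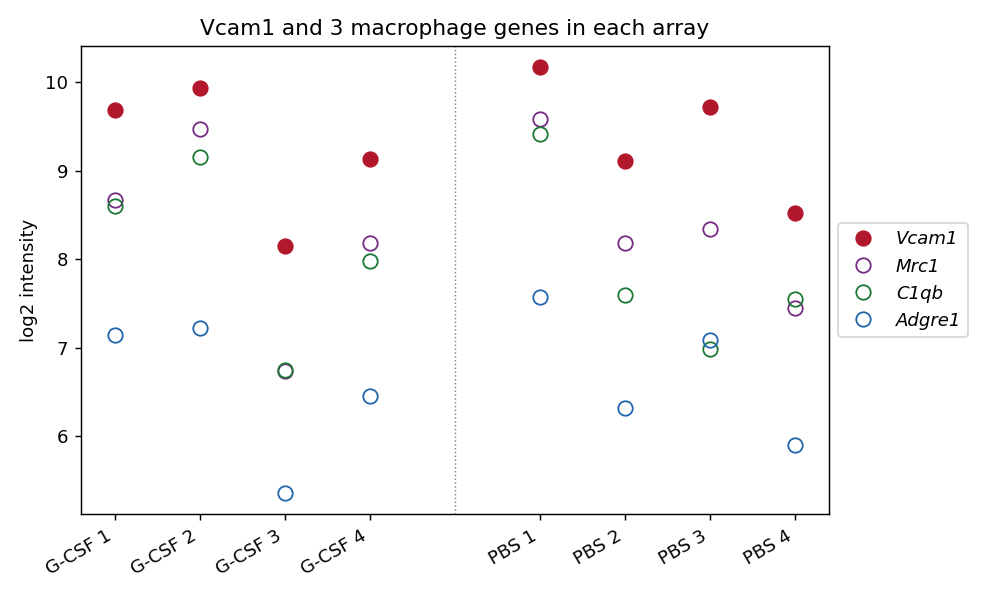
Log2 intensity (vertical) of Vcam1 (filled) and of the macrophage genes Mrc1, C1qb and Adgre1 (open) in each array, G-CSF arrays left and PBS arrays right of the dotted line. Vcam1 and Adgre1 are both lowest in G-CSF replicate 3 and highest in PBS replicate 1, and C1qb departs from this pattern in PBS replicate 3.

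Dpp4 encodes CD26, the surface peptidase that inactivates CXCL12 by removing its first residues. Its log2 intensity was 6.79, 7.59, 7.81 and 7.75 in G-CSF arrays and 7.22, 7.41, 7.07 and 7.50 in PBS arrays. In 3 G-CSF arrays the value lay above all PBS values, while in G-CSF replicate 1 it lay below them. The log2 fold change was 0.19 ± 0.24 SE, a fold of 1.14 with a 95% confidence interval of 0.793 to 1.63 (limma adjusted p = 0.741), and it was 0.42 without G-CSF replicate 1 and 0.11 without PBS replicate 3. G-CSF replicate 1 was also the lowest array for Cxcl12.

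S1pr1, the receptor that senses sphingosine 1-phosphate, had the highest fold change of the 8 genes. Its log2 intensity was 8.75, 8.79, 8.98 and 8.22 in G-CSF arrays and 7.88, 8.40, 7.51 and 8.30 in PBS arrays. The 3 highest values were all from G-CSF arrays, and G-CSF replicate 4 lay below PBS replicates 2 and 4. The log2 fold change was 0.67 ± 0.24 SE, a fold of 1.59, with a 95% confidence interval of 0.13 to 1.2 on the log2 scale (limma adjusted p = 0.469, unadjusted p = 0.0188). The interval lies above 0, but the gene does not pass once all 19938 genes are accounted for. Without PBS replicate 3 the fold was 1.41, with an interval of 1.01 to 1.95 (limma adjusted p = 0.55). S1pr1 is also high in lymphocytes. The 16 T and NK cell markers had a summed linear intensity of 918 to 981 in G-CSF arrays and 501 to 1156 in PBS arrays, and the 13 B cell markers 624 to 707 in G-CSF arrays and 656 to 843 in PBS arrays. The T and NK cell sum leans on its brightest gene, Nkg7, with log2 intensities of 8.72 to 9.16 in G-CSF arrays and 6.36 to 9.24 in PBS arrays. Fold changes were negative for 14 of the 16 and for 10 of the 13, where 11617 of all 19938 genes were negative. Of both lists 0 markers passed, and their part in the S1pr1 values was not tested.

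**Figure D4:**
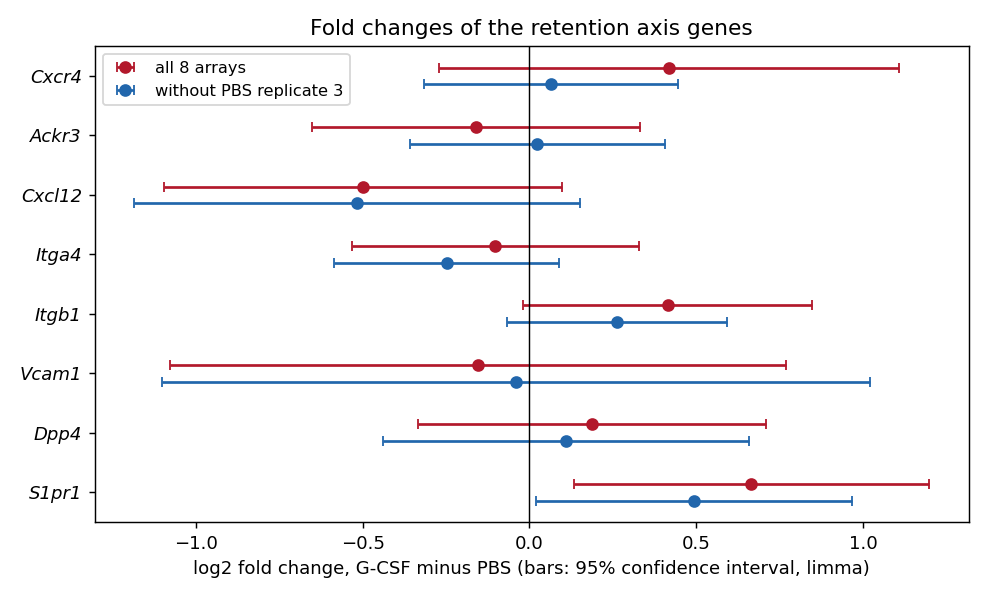
Log2 fold change, G-CSF minus PBS, of the 8 retention axis genes with 95% confidence intervals from limma, with all 8 arrays (red) and without PBS replicate 3 (blue). The interval of S1pr1 lies above 0 in both, those of the other 7 genes cross 0, and the value of Cxcr4 moves from 0.42 to 0.07 when PBS replicate 3 is left out.

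The same rule was applied to the other 6 brighter members, and Ackr3 was not searched. For Cxcr4 these were Elovl1, Arfrp1 and Pnpla2, with correlations of 0.985 to 0.986 over 8 arrays and 0.875 to 0.913 without PBS replicate 3. For Itga4 they were Eral1 at 0.962, Myb, a transcription factor of blood progenitors, at 0.944 and Cog6 at 0.941. For Itgb1 they were Ube3b at 0.990, P4hb, protein disulfide isomerase, at 0.976 and Zfp410 at 0.973. For S1pr1 they were Ankrd54, Xbp1, a factor of the unfolded protein response, and Papola, at 0.937 to 0.940. For Cxcl12 they were Cep57l1, Gtf2ird1 and Tasor2, at 0.949 to 0.979, and for Dpp4 Zfp358, Zfp407 and Pdcd6, at 0.936 to 0.942. Without PBS replicate 3 the ranges were 0.923 to 0.948 for Itga4, 0.914 to 0.972 for Itgb1 and 0.876 to 0.889 for S1pr1. They were 0.967 to 0.982 for Cxcl12 and 0.927 to 0.938 for Dpp4. Each set of 3 is the top of 9586 genes ranked over only 8 arrays.

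Around the 8 genes, 179 measured partner genes in 10 lists were read from the same fit. Of these, 1 rose, Serpinb1a, and 0 fell. At an unadjusted p under 0.05, 28 were higher and 5 lower, together 18.4% of the partners, where 9.01% of all genes passed. No partner was in more than 1 list, Dpp4 itself is also in the CD26 list, and the lists were chosen with earlier results of these data known, so these shares support nothing further.

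Ligands and partners of the chemokine receptors were nearly level. Of 10 genes 0 passed, and the median log2 fold change was 0.04, and -0.01 without PBS replicate 3. Mif, a cytokine that also binds CXCR4, had a log2 fold change of 0.05 ± 0.20 SE (limma adjusted p = 0.916). Cd164, a sialomucin that works with CXCR4 on progenitors, had a log2 fold change of 0.22 ± 0.17 SE, and the heparan sulfate proteoglycan gene Gpc3 0.66 ± 0.30 SE (limma adjusted p = 0.632 and 0.551). Cd4, whose product forms complexes with CXCR4 on T cells, had -0.25 and Hmgb1, a nuclear protein that binds CXCL12, -0.13.

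Genes that carry or quench the receptor signal showed a wider spread, and 0 of 31 passed. Prkcz, the atypical protein kinase C zeta that acts in CXCL12-driven migration, had a log2 fold change of 1.44 ± 0.34 SE (limma adjusted p = 0.229), with 6.89 ± 0.24 in G-CSF arrays and 5.45 ± 0.81 in PBS arrays (SD, n = 4 each). Rgs18, a regulator of G protein signalling in blood cells, had -0.77 ± 0.20 SE (limma adjusted p = 0.296), with 8.50 ± 0.07 in G-CSF arrays and 9.27 ± 0.38 in PBS arrays (SD, n = 4 each). Neither gene overlapped between groups. Prkcz had 2 probe sets, and its log2 fold change ran from 0.02 to 1.79 over 21 alternative settings, so its size depended on the processing. Arrb2, the arrestin that uncouples the receptor, had 0.87 ± 0.32 SE and Pik3r5, a subunit of the phosphoinositide kinase downstream of G proteins, 0.54 ± 0.22 SE (limma adjusted p = 0.469 and 0.523), and Arrb2 had 0.54 without PBS replicate 3. The list's median was 0.32, and 0.09 without PBS replicate 3.

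Of 16 other integrin chains and VLA-4 ligands, 0 passed and the median log2 fold change was 0.02, and -0.06 without PBS replicate 3. Itga6, the laminin receptor chain that also pairs with beta 1, had 9.05 ± 0.17 in G-CSF arrays and 8.54 ± 0.32 in PBS arrays (SD, n = 4 each), a log2 fold change of 0.51 ± 0.20 SE (limma adjusted p = 0.507). Itga7 had -0.40, Itga1 -0.28 and Jam2, a junction protein, 0.36, and without PBS replicate 3 Itga7 had -0.21 and Itga1 -0.18. Of 26 genes that switch integrins on or tie them to actin, 0 passed. Cib1, a calcium-binding partner of integrin tails, had 0.76 ± 0.21 SE, the tetraspanin Cd151 0.98 ± 0.31 SE, filamin A (Flna) 0.70 ± 0.27 SE and the actin linker Parvb -0.62 ± 0.25 SE, with limma adjusted p-values of 0.316 to 0.517. Without PBS replicate 3 Cd151 had 0.64 and Flna 0.43.

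Among 20 genes of sphingosine 1-phosphate sensing and turnover, 0 passed and the median was 0.11, and 0.03 without PBS replicate 3. S1pr4, the receptor of the same family found on blood cells, had a log2 intensity of 8.10 ± 0.10 in G-CSF arrays and 7.68 ± 0.22 in PBS arrays (SD, n = 4 each), without overlap, and a log2 fold change of 0.42 ± 0.17 SE (limma adjusted p = 0.517). Asah1, acid ceramidase, had 0.52, and 0.33 without PBS replicate 3, and Sgpl1, the lyase that destroys the lipid, 0.53. The lipid phosphatase gene Plpp1 had -0.44. Among 12 genes of the CD26 family and its partners, Dpp4 included, 0 passed and the median was 0.22, and 0.12 without PBS replicate 3. Ada, adenosine deaminase, which binds CD26 at the cell surface in humans, had 0.80 ± 0.28 SE (limma adjusted p = 0.453), without overlap between groups. Dpp6 had -0.53, Dpp3 0.43 and Prcp 0.32, each short of the threshold, and Dpp6 had -0.32 without PBS replicate 3.

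Proteases known to cut CXCL12, CXCR4 or VCAM1 had a median of 0.64, and 0.34 without PBS replicate 3. Protease inhibitors had a median of 0.46, and 0.43 without PBS replicate 3. Of the 18 genes 0 passed with all arrays. Prtn3, the granule protease proteinase 3, had 9.61 ± 0.21 in G-CSF arrays and 8.23 ± 0.47 in PBS arrays (SD, n = 4 each), without overlap, with a fold of 2.60 (limma adjusted p = 0.068, and 0.0371 without PBS replicate 3). It passed in 2 of 21 alternative settings. The collagenase Mmp8 had a log2 fold change of 2.70 ± 0.64 SE, cathepsin G (Ctsg) 1.59 ± 0.52 SE and the gelatinase Mmp9 1.65 ± 0.59 SE (limma adjusted p = 0.224, 0.403 and 0.46). Among 12 protease inhibitors, Serpinb1a, whose product blocks elastase-like enzymes of granulocytes, rose by a log2 fold change of 2.25 ± 0.31 SE (limma adjusted p = 0.0198), a fold of 4.75, and the other 11 did not pass, among them Cst3 at 0.70, Slpi at 1.14 and Serpina1d at -0.50. It had 8.82 ± 0.23 in G-CSF arrays and 6.57 ± 0.69 in PBS arrays (SD, n = 4 each).

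All 18 measured neutrophil markers had positive fold changes, where 8321 of all 19938 genes did, and 0 passed. At an unadjusted limma p under 0.05, 17 of the 18 were higher, where 6.07% of all genes were. Of the 18, 9 had no overlap between groups, where 6.15% of all genes had none. The median log2 fold change was 1.93, and 1.87 without PBS replicate 3. Their summed linear intensity was 18676 to 48057 in G-CSF arrays and 7464 to 17524 in PBS arrays. Their mean log2 intensity was 10.47, 10.42, 8.25 and 8.93 in G-CSF replicates 1 to 4. Mmp8, at 10.13, 10.14, 7.66 and 7.77, and Mmp9, at 8.61, 9.13, 6.23 and 6.64, were likewise high in G-CSF replicates 1 and 2 and low in 3 and 4. Prtn3, at 9.59, 9.33, 9.70 and 9.83, and Serpinb1a, at 8.77, 8.97, 8.52 and 9.01, did not show this order. With the neutrophil marker mean as a covariate the log2 fold change was 1.62 for Prtn3, 2.20 for Serpinb1a, 0.40 for Mmp8 and -0.88 for Mmp9, with limma adjusted p-values of 0.56 or more. The marker mean did not overlap between groups, so this fit cannot cleanly split it from treatment. Mmp8 and Mmp9 are themselves in the neutrophil list. Their likeness to its mean, and their fold changes with it as a covariate, are therefore partly built in. Prtn3 and Serpinb1a are not in the list, so the genes do not compare on equal terms. The part of neutrophil RNA in these values was not tested.

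Of 28 other receptors and ligands of retention and exit, 0 passed. Csf3r, the G-CSF receptor, had a fold of 2.44 (limma adjusted p = 0.0585, and 0.0125 without PBS replicate 3). It passed in 4 of 21 alternative settings. Esam, a junction protein of stem cells and endothelium, had a log2 fold change of 0.89 ± 0.20 SE, and Ptger4, a prostaglandin E2 receptor, 0.82 ± 0.21 SE, neither with overlap between groups (limma adjusted p = 0.206 and 0.26). Cxcr2, the neutrophil chemokine receptor that is also in the neutrophil list, had 3.35 ± 0.72 SE (limma adjusted p = 0.185). Kit, the receptor for stem cell factor, had -0.35 ± 0.17 SE (limma adjusted p = 0.552).

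**Figure D5:**
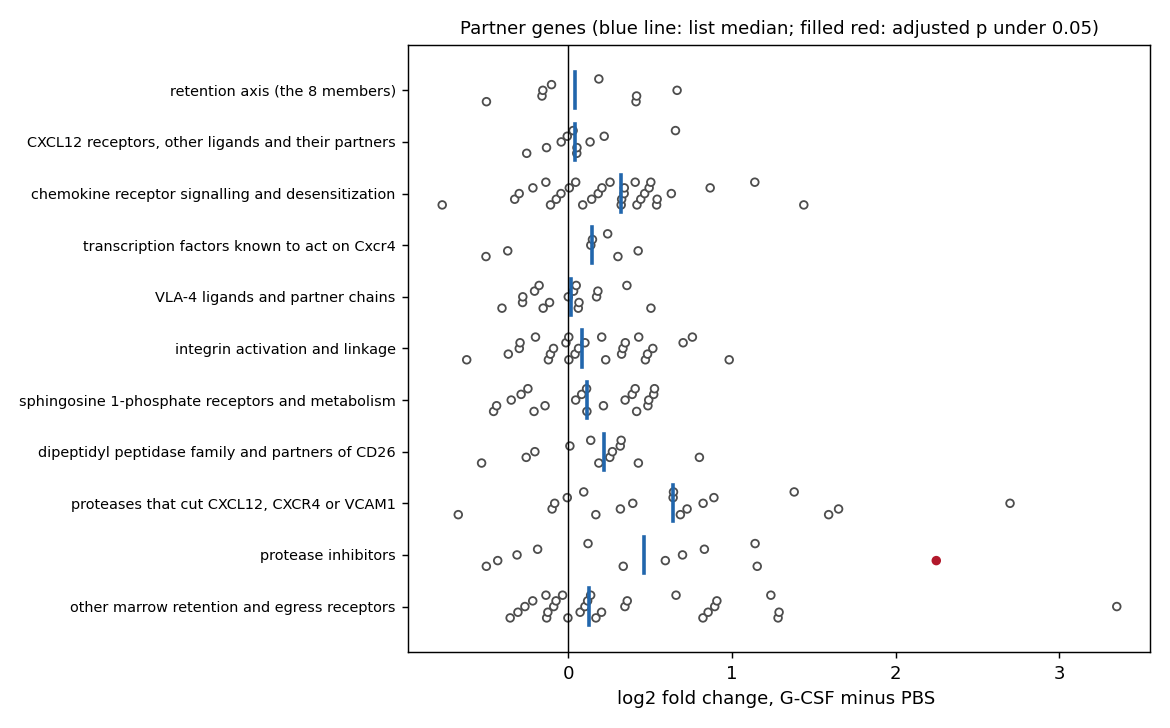
Log2 fold change, G-CSF minus PBS, of each of the 8 retention axis genes and of the partner genes in 10 lists (1 point a gene, with a blue line at the list median). Serpinb1a, at 2.25, is the only filled point, the 1 gene of the figure with a limma adjusted p under 0.05.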

How the data were processed

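Per the labels' protocols, RNA from the sorted cells came off RNA XS columns, was amplified by the NuGen Ovation system and was read on MoGene 1.0 ST arrays. Each deposited value is the linear intensity of 1 probe set on 1 array. The authors made it with RMA, per the submitters' processing notes, and its software version and options were not known here. The values were taken to log2. Of 35556 probe sets, 21789 carried 1 gene symbol, 1621 several and 12146 none. The probe set with the highest mean was kept per gene, which left 19938 genes. RefSeq identifiers matched 21698 probe sets. The comparison of G-CSF with PBS used limma 3.58.1 under R 4.3.3 (2-sided, no trend, Benjamini-Hochberg over all genes, threshold 0.05), after a check on simulated data. The number of arrays limits the precision, and no detection calls were used.

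The members and gene lists were chosen with earlier results of these data known. The text names the 8 members, the genes past the threshold or the 4 lowest p-values of each partner list, 4 checks (Csf3r, Socs3, Kit, Slamf1), and the 3 genes most correlated with each brighter member. Nrf1, Gfi1, Mif, Hlf, Lepr, Cd48, Itga2b, C1qa, C1qb, Cd68 and Ccr2 were chosen outside this rule, for their roles, after their values were seen. Cd34, Flt3 and Tek were also chosen outside it, for their fold changes. Alternatives were another moderation, array weights, a block by replicate number, leaving out dim genes, quantile normalization, centring, other probe set choices, a pseudocount of 16, marker covariates and leaving out each array.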

Additional observations from a re-analysis of the deposited data

Results flagged for a closer look

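In groups of 4 arrays, 3 averages had 1 array far from the rest by Dixon's test, which flags about 1 in 20 such groups by chance. The mean of the macrophage and monocyte markers in PBS arrays had a gap ratio of 0.887, with PBS replicate 1 at 8.25 and the others down to 6.54 on the log2 scale; Vcam1 was highest in that array. The mean of the T and NK cell markers in G-CSF arrays had 0.896, with G-CSF replicate 1 at 5.12 and the others down to 4.75. The mean of the organ genes in PBS arrays had 0.952, with PBS replicate 3 at 5.20 and the others down to 4.58. None of the 8 retention axis genes was flagged in either group.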

How the results depend on the processing

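The number of retention axis genes called was 0 under all 21 alternatives, with adjusted p-values from 0.381 to 0.997. Directions were kept by Cxcl12, Itga4, Itgb1, Dpp4 and S1pr1. Each member has 1 probe set, so the probe set choices could not move its fold change. Nor could another moderation, the replicate block or the filter on dim genes, so these settings do not test directions. Cxcr4 turned to -0.019 with quantile normalization without PBS replicate 3. Ackr3 turned to 0.014 with quantile normalization and to 0.12 when PBS replicate 3 was left out as well. Leaving out single arrays gave -0.27 to 0.024 for Ackr3, positive without PBS replicate 3, and -0.44 to 0.20 for Vcam1, positive without G-CSF replicate 3 and, at 0.11, without PBS replicate 1. With the neutrophil covariate Cxcl12 had -0.06 and Dpp4 0.77. That covariate did not overlap between groups, so fits with it cannot cleanly split it from treatment. Of the partners and checks, Mmp9 turned to -0.88 and Slpi to -0.34 with the neutrophil covariate, which includes Mmp9. Slamf1 turned to -0.036 with array weights, -0.57 with the neutrophil covariate, -0.0061 with the macrophage covariate (chosen after seeing the data) and -0.070 with quantile normalization without PBS replicate 3. Leaving out single arrays gave -0.30 to 0.036 for Hmgb1, positive without PBS replicate 4, and -0.065 to 0.40 for Slamf1, negative without PBS replicate 3. The highest median of the 8 genes was 0.19, with the filter on dim genes, which leaves out Ackr3.

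The number of all genes called was 19. It was 40 with array weights, 10 after quantile normalization and 0 with the neutrophil covariate, which itself separates the groups. With all probe sets it was 0 (lowest adjusted p 0.0615). Leaving out single arrays gave 3 to 31 (10, 3, 31 and 7 without G-CSF replicates 1, 2, 3 and 4). Serpinb1a and Socs3 each did not pass in 6 of 21 alternatives. Csf3r passed in 4 of the 21, Prtn3 in 2, and Prkcz, Mmp8 and Cxcr2 in 1 each. Same-numbered arrays correlated in their deviations from the group means at -0.03 to 0.14. Differently numbered arrays ranged from -0.22 to 0.27, so these correlations cannot decide whether the numbers pair the arrays. With the replicate number as a block 23 genes were called and no member was. In that fit the SE rose for Itga4, Itgb1 and S1pr1 and fell for the other members. Cxcl12 had -0.50 ± 0.20 SE there, with a confidence interval of -0.96 to -0.04 (limma adjusted p = 0.502). Replicates come from separate pools of mice, and 4 arrays a group leave the wide intervals given above.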
